A study of Mus musculus with 4 samples.

Results

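The cytosolic ribosomal protein genes encode the protein parts of the ribosome that works in the cytosol. They were taken from the gene table by symbol: Rpl or Rps followed by a number and at most a short suffix, together with Rpsa, Rplp0, Rplp1 and Rplp2, and without the S6 kinase genes. This gave 83 of the 15768 genes listed, 51 for the large (60S) and 32 for the small (40S) subunit. Of these, 77 were canonical members and 6 were paralogues whose symbol marks them as a "like" copy (Rpl3l, Rpl6l, Rpl7l1, Rpl22l1, Rpl32l and Rps27l). The same 83 genes accounted for 150 of the 53915 transcripts in the transcript table.

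Lkb1 siRNA cultures were JoMa1.3 cells given pooled siRNAs that target Stk11, which encodes the kinase LKB1 in mice. Control siRNA cultures were JoMa1.3 cells transfected with a non-targeting pool. JoMa1.3 is a mouse neural crest cell line that is kept dividing by a conditional c-Myc transgene, so both groups model immortalised and not primary crest cells. All cultures received 60 nM siRNA and were taken 72 h after transfection, in medium with EGF, FGF and chick embryo extract. Either of a pair of transfection reagents was used, and the labels do not say which for which culture. Each group held 2 libraries of bulk mRNA, 1 from batch 1 and 1 from batch 2, as the labels name them. Per library, 17426719 to 19324675 counts fell on genes.

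Stk11, the targeted gene, had 81.4 and 82 CPM (counts scaled to the same library total) in the Lkb1 siRNA libraries, against 122 and 118 CPM in the control siRNA libraries (log2 fold change -0.55, SE 0.0659, edgeR adjusted p = 0.0378). The libraries of each group lay close together and the groups did not overlap. Limma on FPKM called no gene in these data, Stk11 included. Of 11 neural crest markers, 8 had a row and 7 of them averaged at least 1 FPKM, among them Snai2, Twist1, Pax3 and Sox9. Ngfr was under 1 FPKM in all 4 libraries, and Sox10, Foxd3 and Msx2 had no row. The summed level of the 8 crest markers with a row was 155 and 143 FPKM with Lkb1 siRNA and 150 and 145 FPKM with control siRNA. Of 19 markers of other cell types, 14 had a row and 10 of these averaged under 1 FPKM, including Epcam, Cdh1, Pecam1, Cdh5 and Gfap. The 4 that averaged at least 1 FPKM were Acta2, Tubb3, Hba-a1 and Cd68. Tubb3 had 11.6 and 8.24 FPKM with Lkb1 siRNA and 7.75 and 7.71 FPKM with control siRNA. The other-cell markers summed to 196 and 185 FPKM with Lkb1 siRNA and 245 and 233 FPKM with control siRNA, nearly all of it Acta2, and their part in the results was not tested.

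A ribosome is built from rRNA and 1 copy of most ribosomal proteins, so cells make these proteins in matched amounts, and their mRNAs are among the most abundant in growing cells. Most of these mRNAs in mammals begin with a C and a run of pyrimidines, the 5′ terminal oligopyrimidine (TOP) tract, through which the kinase mTOR and the protein LARP1 set how well they are translated. LKB1 activates the kinase AMPK, which restrains mTOR complex 1. Several ribosomal proteins, Rpl38 among them, are known from mouse mutants with patterning defects, and others from human Diamond-Blackfan anaemia.

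The start of the mRNA is shown for 7 members, because the tract lies there. RefSeq promoter sequences of build GRCm38.p6 were matched to 62 of the 83 members by gene ID and gave 74 annotated starts. Each sequence runs from 40 bases before the annotated start to 20 bases into the transcript, on the gene's own strand. Capitals mark the unbroken run of C and T that begins with C at the annotated start. Rpl38 lies at chr11:114668540-114668599 on the plus strand, Rps6 at chr4:86857348-86857407 on the minus strand, Rplp2 at chr7:141447611-141447670 on the plus strand and Rpl35 at chr2:39005112-39005171 on the minus strand. Rps15 lies at chr10:80292391-80292450, Rps2 at chr17:24720023-24720082 and Rpl36a at chrX:134585614-134585673, all on the plus strand. These 3 have no such run at their annotated start, which does not show that their mRNAs lack the tract. The gene entries of Rps2 and Rpl38 begin upstream of the sequences shown, at chr17:24718121 and chr11:114667818.
Rpl38: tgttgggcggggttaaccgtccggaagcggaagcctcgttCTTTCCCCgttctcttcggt
Rps6: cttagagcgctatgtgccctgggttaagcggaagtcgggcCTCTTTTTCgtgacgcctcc
Rplp2: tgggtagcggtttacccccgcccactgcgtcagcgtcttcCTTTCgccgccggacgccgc
Rpl35: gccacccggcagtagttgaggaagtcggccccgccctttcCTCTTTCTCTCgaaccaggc
Rps15: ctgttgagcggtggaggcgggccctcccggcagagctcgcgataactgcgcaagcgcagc
Rps2: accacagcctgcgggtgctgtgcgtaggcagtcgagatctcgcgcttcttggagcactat
Rpl36a: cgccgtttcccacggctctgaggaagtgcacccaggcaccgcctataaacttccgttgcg

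A C followed by at least 4 bases that were each C or T stood at 14 of the 74 member starts (18.9%), against 2.51% of the 32851 starts in the table. The run covered 8 bases in Rpl38, 9 in Rps6, 5 in Rplp2 and 11 in Rpl35. An annotated start that is off by a few bases misses the tract, so these shares describe the annotation as well as the mRNAs. In the whole window of 250 bases before to 50 bases after the start, searched on both strands, CCGGAAG (the core bound by ETS factors such as GABP) stood in 35.1% of member windows and in 8.86% of all windows. AANATGGC, the core of the YY1 motif, stood in 23% of member windows and 6.05% of all windows. The GC box GGGCGG stood in 59.5% of member windows and 35.7% of all windows, and TATAAA in 10.8% of member windows and 13.6% of all windows. None of these strings contains another. The window of Rpl38 holds 1 copy of CCGGAAG, as do those of Rps6, Rplp2, Rpl35 and Rps2, while those of Rps15 and Rpl36a hold 0 copies.

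By level per length, the ribosomal protein mRNAs were a large part of these transcriptomes. They took 26.3 and 26.8% of the summed FPKM in the Lkb1 siRNA libraries, and 27.1 and 27.6% in the control siRNA libraries. The highest large-subunit members were Rpl23a, which lies at the exit of the peptide tunnel, at a mean of 6447 FPKM over the 4 libraries, Rpl41, the smallest ribosomal protein, at 5081 FPKM, and Rpl12, at the base of the stalk, at 4457 FPKM. In the small subunit they were Rps2, near the mRNA entry channel, at 5754 FPKM, Rps26, near the mRNA exit, at 5487 FPKM, and Rps18, in the head, at 5103 FPKM. The lowest canonical small-subunit members were Rps15a at 82.8 FPKM and Rps20 at 159 FPKM. Both have effective lengths far above the other members of that subunit, 4842 nt in Rps15a and 3152 nt in Rps20. In counts, Rps15a had 382 and 400 CPM with Lkb1 siRNA and 404 and 419 CPM with control siRNA, and Rps20 had 439 and 499 CPM with Lkb1 siRNA and 536 and 539 CPM with control siRNA.

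Effective length is the number of positions from which a fragment of the library's sizes can start in a transcript. Here it was derived from each library's count, total and FPKM. It is very small for the shortest mRNAs, so their FPKM rests on a small divisor: 55.4 nt in Rpl38 and 70.1 nt in Rps27. Levels of the shortest members are therefore less certain than their counts.

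With Lkb1 siRNA the ribosomal protein mRNAs were slightly lower almost throughout, by a median of -7.91%, but no member passed edgeR's test without the block at the main filter. Of the 81 members that passed the expression filter, 78 had a lower mean count, against 49.8% of the 12222 genes tested. Lower in both batches were 75, against 33.4% of all genes tested. In 71 members both Lkb1 siRNA libraries lay below both control siRNA libraries, against 21.4% of all genes tested, and in 1 member, Rpl32l, they lay above, against 21.2% of all genes tested. Their median log2 fold change was -0.119, interquartile range -0.154 to -0.078, and the median of all genes tested was 0.000. The median log2 ratio was -0.120 within batch 1 and -0.103 within batch 2.

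None of the 81 passed edgeR's quasi-likelihood test at an adjusted p of 0.05, at which 0.0491% of all genes were called lower and 0.0327% higher. At an unadjusted p under 0.05, 22 members were lower and 0 higher, against 5.53% lower and 5.61% higher among all genes. DESeq2 called 1 member, Rpl38, lower (background 0.254% of genes lower and 0.147% higher), and limma on log2(FPKM + 1) called 0. The batch number pairs the libraries, and with it as a block in the edgeR fit 39 members were called lower and 0 higher. The background for that count was 6.99% lower and 6.59% higher among all genes. Among the 2400 genes with a mean of at least 100 CPM, the range in which nearly all members lie, it was 14.4% lower and 6.88% higher. These genes include the members of that range. Their median level was 169 CPM, against 805 CPM for the members, so the 2 sets are not matched in level. The fit with the block leaves 1 residual degree of freedom per gene and takes most of its estimate of the spread from other genes. Each library is scaled to its own total, so these values are shares of a library. They do not give amounts of mRNA per cell or per culture.

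**Figure D1:**
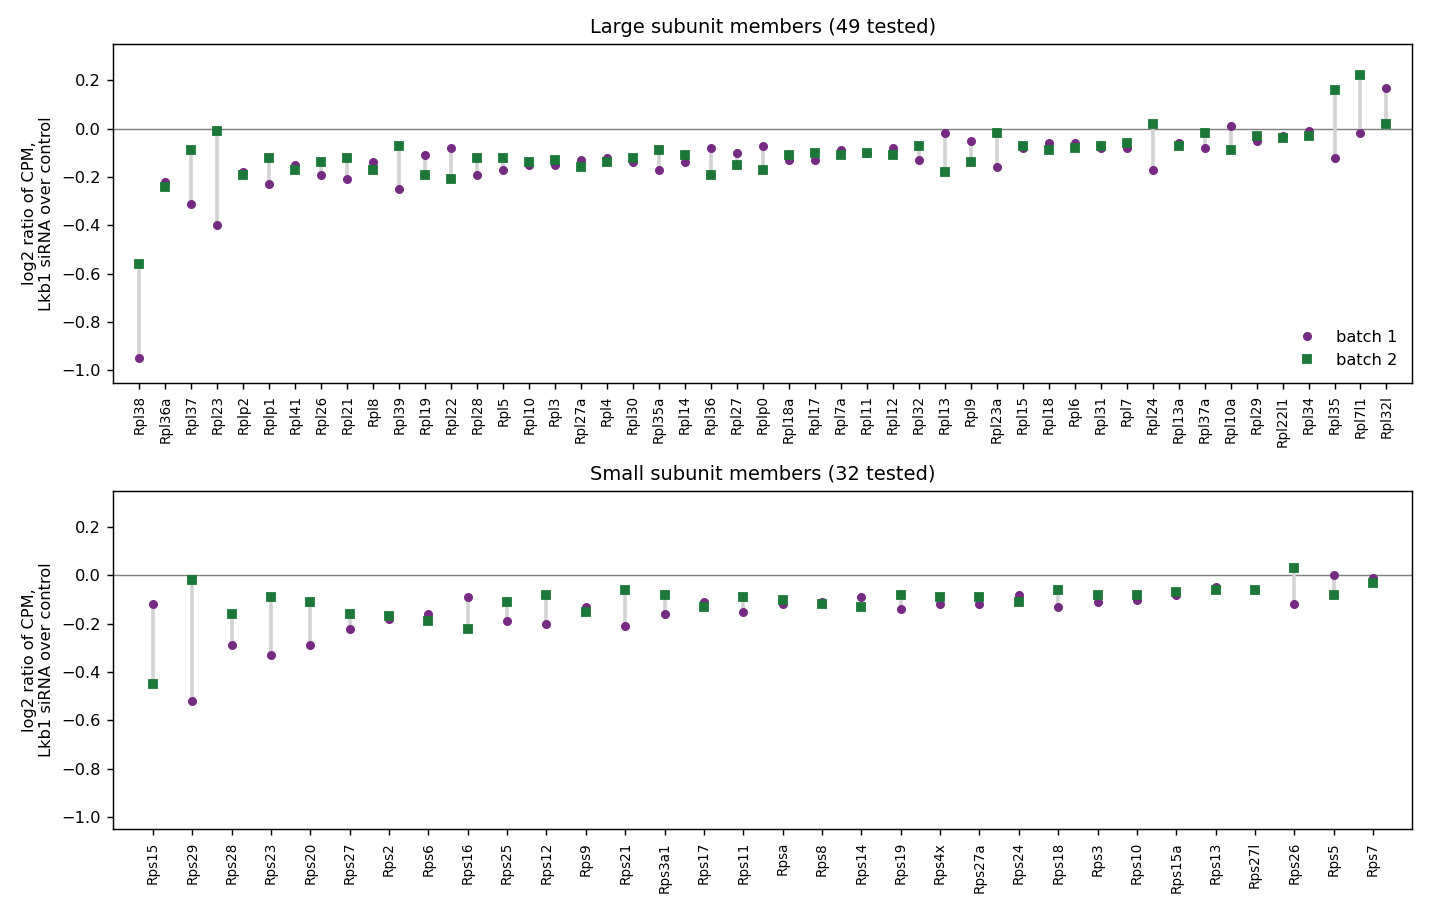
The log2 ratio of CPM, Lkb1 siRNA over control siRNA, is plotted for each tested member within batch 1 (circles) and batch 2 (squares), with large-subunit members above and small-subunit members below, sorted by fitted fold change. Most points lie between 0 and -0.3, Rpl38 lies lowest at -0.95 and -0.56, and grey bars join the batches.

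The difference in log2 fold change between the large and the small subunit was smaller than the spread between batches. The 46 canonical large-subunit genes had a median log2 fold change of -0.126, and 45 were lower. The 31 canonical small-subunit genes had a median of -0.117, and all 31 were lower. Over all 49 tested large and 32 tested small members, the medians were -0.120 and -0.115. The difference of the medians, large minus small, was -0.004 in the fit, 0.002 in batch 1 and -0.026 in batch 2 (SD over batches 0.020).

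The ratio of the summed levels of the subunits differed between groups by less than its spread between the Lkb1 siRNA libraries. Large-subunit FPKM over small-subunit FPKM was 1.316 and 1.309 in the Lkb1 siRNA libraries, against 1.311 and 1.311 in the control siRNA libraries (two-sided exact permutation p = 1). With 2 libraries against 2, this test cannot give a p below 0.333, so only a coarse statement is possible. The ratio of median FPKM of canonical members, large over small, was 0.804 and 0.836 with Lkb1 siRNA and 0.830 and 0.858 with control siRNA (exact permutation p = 0.667). The groups overlapped, but this ratio was lower with Lkb1 siRNA in both batches. Its mean difference was -0.0242, against SDs of 0.0226 with Lkb1 siRNA and 0.0203 with control siRNA. All members together took 7.274 and 7.386% of gene counts with Lkb1 siRNA and 7.719 and 7.868% with control siRNA. These shares did not overlap, at the smallest exact permutation p the design allows (0.333). Large-subunit genes took 4.383 and 4.445% with Lkb1 siRNA and 4.626 and 4.728% with control siRNA, and small-subunit genes 2.891 and 2.941% with Lkb1 siRNA and 3.092 and 3.140% with control siRNA.

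Rpl38, a large-subunit protein that in mice is needed for normal skeletal patterning, stood apart from every other member. It had 59.7 and 79.2 CPM in the Lkb1 siRNA libraries (batch 1 and batch 2), against 116 and 117 CPM in the control siRNA libraries. The groups did not overlap, the control libraries lay close together, and the batch 1 Lkb1 siRNA library was the lowest. These values rest on 1048 and 1486 counts with Lkb1 siRNA and 2118 and 2258 counts with control siRNA. The log2 fold change was -0.74 (SE 0.114, edgeR adjusted p = 0.073), or -40.2%, which just missed the threshold. Within batches the log2 ratio was -0.95 in batch 1 and -0.56 in batch 2.

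The position of Rpl38 was far outside the spread of the set. It lay 11.7 scaled median absolute deviations below the median of the members, and the other 80 members reached no lower than -0.28. Rpl38 was singled out with its result known, so this distance is a description and no test. The adjusted p of Rpl38 depended on the fit. It was 1.74e-05 in DESeq2, 0.0396 in edgeR with a filter of 1 count, and 2.43e-37 with the replicate block, but 0.293 in limma on FPKM. The fit with the block takes most of its estimate of the spread from other genes. Its small p-value therefore does not measure the gap between the batch ratios of Rpl38 (-0.95 and -0.56). Over all fits run, those leaving out 1 library included, the log2 fold change of Rpl38 lay between -0.96 and -0.55. Without the batch 1 control siRNA library it was -0.75 (edgeR adjusted p = 0.0852) and without the batch 2 control siRNA library -0.73 (0.102), neither past the threshold. Without the batch 1 Lkb1 siRNA library it was -0.55 (0.00252) and without the batch 2 Lkb1 siRNA library -0.96 (3.86e-10). In these last fits a single Lkb1 siRNA library is set against both controls and is assumed to vary as the controls do, so their small p-values leave out the gap between the Lkb1 siRNA libraries and are no stronger evidence than the fit with all 4.

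Rpl38 also has the shortest effective length of the tested members, and that length differed between groups. It was 51.6 and 55.1 nt in the Lkb1 siRNA libraries, against 57.4 and 57.4 nt in the control siRNA libraries. Over 745 single-transcript genes of at least 50 FPKM, the median difference in effective length from the control library of the same batch was -7.13 nt in the Lkb1 siRNA library of batch 1 and -4.91 nt in that of batch 2. Per length, Rpl38 had 1166 and 1458 FPKM with Lkb1 siRNA and 1973 and 2036 FPKM with control siRNA, still without overlap. The log2 fold change was -0.62 on FPKM and -0.65 (edgeR adjusted p = 0.0938) with each library's effective length as an offset. The direction was the same on both scales.

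The tested transcripts of Rpl38 all had a negative log2 fold change, but not all were lower in both batches. The main one, NM_023372, had 40.7 and 54.4 CPM with Lkb1 siRNA and 82.2 and 84.2 CPM with control siRNA (log2 fold change -0.81, SE 0.164). The next, NM_001048057, had 12.2 and 16.4 CPM with Lkb1 siRNA and 22.3 and 24.5 CPM with control siRNA (log2 fold change -0.71, SE 0.198). The groups did not overlap in either. The edgeR adjusted p over all transcripts was 0.687 for both. The main transcript carried 68.3% of the gene's transcript counts in the batch 1 Lkb1 siRNA library and 70.5% in the batch 1 control library. NM_001048058 had 0.911 and 0.907 CPM with Lkb1 siRNA and 1.98 and 1.77 CPM with control siRNA (log2 fold change -1.04, SE 0.639), without overlap. NM_001362918 had 0.911 and 1.92 CPM with Lkb1 siRNA and 2.59 and 1.88 CPM with control siRNA. XM_017314720 had 4.89 and 5.66 CPM with Lkb1 siRNA and 7.48 and 5.43 CPM with control siRNA. Both NM_001362918 and XM_017314720 overlapped between groups, and neither was lower in batch 2 (log2 ratios 0.03 and 0.06).

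**Figure D2:**
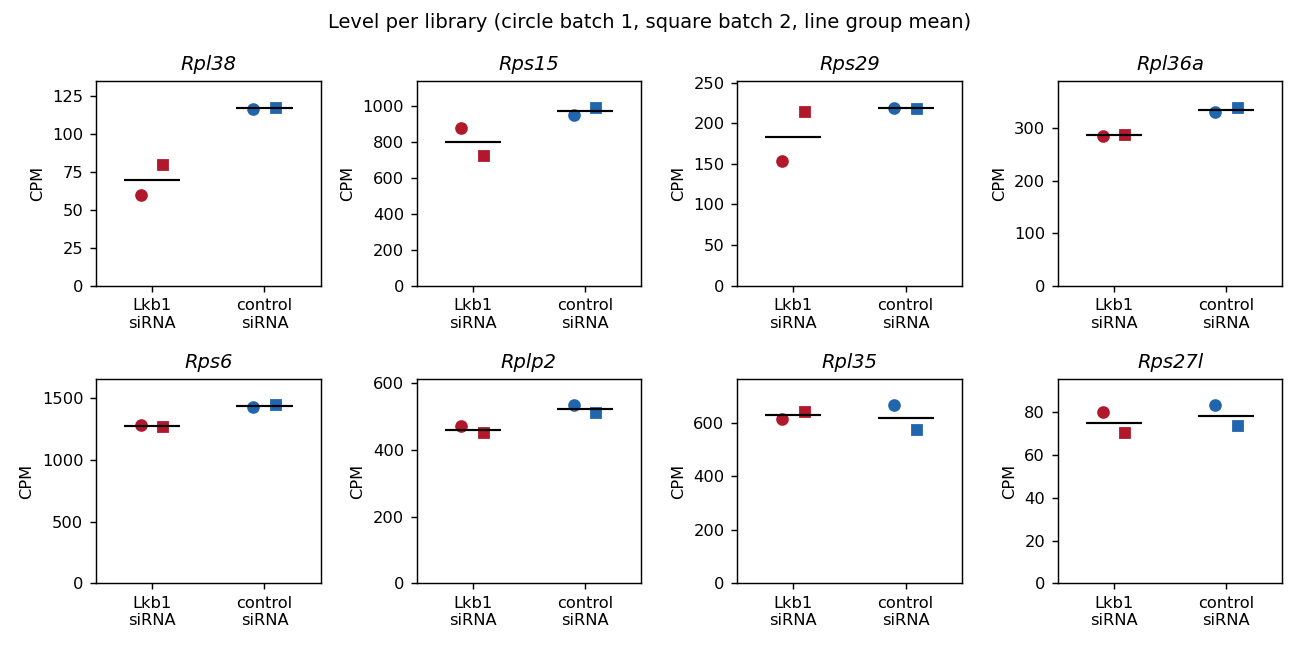
CPM, on axes from 0, is shown per library for 8 members, with Lkb1 siRNA on the left and control siRNA on the right of each panel; circles are batch 1, squares batch 2 and the line is the group mean. Rpl38, Rps15, Rpl36a, Rps6 and Rplp2 do not overlap between groups, Rps29 is low in 1 Lkb1 siRNA library, and Rpl35 and Rps27l overlap.

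Besides Rpl38, the 7 members with the smallest p were Rpl36a, Rps15, Rps2, Rps6, Rplp2, Rps28 and Rplp1, all lower and none past the threshold in the unblocked edgeR fit. Rpl36a, a large-subunit protein at the tRNA exit site, had 285 and 288 CPM with Lkb1 siRNA and 331 and 339 CPM with control siRNA (log2 fold change -0.23, SE 0.0643, edgeR adjusted p = 0.27). Its libraries agreed closely within each group, and the groups did not overlap. Rps15, near the decoding site, had 879 and 725 CPM with Lkb1 siRNA and 953 and 992 CPM with control siRNA (-0.28, SE 0.0898, adjusted p = 0.321). Its groups did not overlap either, but the difference was larger in batch 2, with log2 ratios of -0.12 in batch 1 and -0.45 in batch 2. Without the batch 1 Lkb1 siRNA library Rps15 passed, at a log2 fold change of -0.42 (edgeR adjusted p = 0.02), in a fit whose spread within groups comes from the control pair and not from the Lkb1 siRNA libraries.

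Rps6, the substrate of the S6 kinases downstream of mTOR, had 1280 and 1263 CPM with Lkb1 siRNA and 1426 and 1438 CPM with control siRNA (log2 fold change -0.17, SE 0.0599, edgeR adjusted p = 0.351). Rps2 had 3862 and 3768 CPM with Lkb1 siRNA and 4387 and 4232 CPM with control siRNA (-0.18, SE 0.058, adjusted p = 0.33). Rps28, near the mRNA exit, had 265 and 302 CPM with Lkb1 siRNA and 323 and 336 CPM with control siRNA (-0.22, SE 0.0783, adjusted p = 0.358). None of the 3 overlapped between groups, and each was called lower with the replicate block (edgeR adjusted p = 0.00154 for Rps6, 2.51e-04 for Rps2 and 1.99e-04 for Rps28).

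The stalk recruits the elongation factors to the large subunit. The mRNAs of its 3 proteins were all lower without overlap, as were 87.7% of the tested members and 21.4% of all genes tested. Rplp2 had 470 and 449 CPM with Lkb1 siRNA and 533 and 511 CPM with control siRNA (log2 fold change -0.18, SE 0.0656, edgeR adjusted p = 0.358). Rplp1 had 593 and 618 CPM with Lkb1 siRNA and 693 and 672 CPM with control siRNA (-0.17, SE 0.064, adjusted p = 0.359). Rplp0, the scaffold that binds both, had 3774 and 3521 CPM with Lkb1 siRNA and 3963 and 3962 CPM with control siRNA (-0.12, SE 0.0609, adjusted p = 0.505). None passed without the block, and all 3 were called lower with it (48.1% of the tested members and 6.99% of all genes).

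Rpl5 and Rpl11 carry 5S rRNA into the large subunit and, when free, bind the p53 inhibitor Mdm2. Rpl5 had 1454 and 1458 CPM with Lkb1 siRNA and 1633 and 1583 CPM with control siRNA (log2 fold change -0.14, SE 0.0602, edgeR adjusted p = 0.422). Rpl11 had 619 and 633 CPM with Lkb1 siRNA and 665 and 680 CPM with control siRNA (-0.10, SE 0.0625, adjusted p = 0.564). With the replicate block Rpl5 was called lower (edgeR adjusted p = 0.0104) and Rpl11 was not (0.117). The mRNA of Trp53, which encodes p53, was higher in the same libraries. It had 51.9 and 50.9 CPM with Lkb1 siRNA and 31.1 and 30.6 CPM with control siRNA (log2 fold change 0.74, SE 0.0782, edgeR adjusted p = 0.026). Limma on FPKM did not call it. The libraries hold mRNA only, so p53 protein and its binding by Mdm2 were not measured.

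Some members differed more between the Lkb1 siRNA libraries than between groups. The log2 ratios of batch 1 and batch 2 lay a median of 0.05 apart over the 81 members, and more than 0.2 apart in 8. Rps29 had 153 and 214 CPM with Lkb1 siRNA, against 219 and 218 CPM with control siRNA, so that 1 library carried the difference. In the fit with all 4 libraries its log2 fold change was -0.25 (SE 0.129, edgeR adjusted p = 0.508). Without the batch 2 Lkb1 siRNA library it was -0.51 (0.00674), which sets the single low library against the control pair and leaves out the spread just described. Rpl23 had 742 and 911 CPM with Lkb1 siRNA and 978 and 915 CPM with control siRNA, again low in the batch 1 Lkb1 siRNA library. Across libraries the median coefficient of variation of the members was 2.88% with Lkb1 siRNA and 1.79% with control siRNA. Rps29 and Rpl23, like Rpl35 below, were singled out after their values were seen.

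Of the 77 canonical genes only Rpl35, a protein at the exit tunnel, did not have a lower mean. It had 612 and 641 CPM with Lkb1 siRNA and 664 and 572 CPM with control siRNA (log2 fold change 0.02, SE 0.0809, edgeR adjusted p = 0.952). The groups overlapped, with the highest and the lowest value both in control libraries. Its annotated start has the longest C and T run of the sequences shown. Over the 14 members with such a run, log2 fold changes ran from -0.74 to 0.09 with a median of -0.130. Over the 47 tested members with a RefSeq start but no run there, they ran from -0.28 to 0.09 with a median of -0.110.

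The tested paralogues lay nearer to 0 than their parents or above it, and none passed the test. Rpl22l1, which can stand in for Rpl22 in mouse cells, had 93.2 and 92.8 CPM with Lkb1 siRNA and 95.1 and 95.7 CPM with control siRNA (log2 fold change -0.04, SE 0.0651). Its parent Rpl22 had 355 and 365 CPM with Lkb1 siRNA and 376 and 424 CPM with control siRNA (-0.15, SE 0.0759). Rps27l had 79.8 and 70.3 CPM with Lkb1 siRNA and 83.1 and 73.5 CPM with control siRNA (-0.06, SE 0.0887), and Rps27 had 226 and 245 CPM with Lkb1 siRNA and 263 and 274 CPM with control siRNA (-0.19, SE 0.0707). Rps27l overlapped between groups and Rps27 did not.

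Rpl7l1 and Rpl32l lay more than 3 scaled median absolute deviations above the median of the members. Rpl7l1 had 153 and 152 CPM with Lkb1 siRNA and 156 and 130 CPM with control siRNA (log2 fold change 0.09, SE 0.0878), an overlap, while Rpl7 was at -0.07. Rpl32l had 6.32 and 6.03 CPM with Lkb1 siRNA and 5.62 and 5.96 CPM with control siRNA (0.09, SE 0.165), while Rpl32 was at -0.10. Rpl32l rests on 103 to 115 counts per library, so a change of this size was not detectable at its depth. Rpl3l had 0 and 0 counts with Lkb1 siRNA and 1 and 1 with control siRNA, and Rpl6l had 2 and 4 with Lkb1 siRNA and 2 and 3 with control siRNA; neither entered the test. Among the 4 tested paralogues the median was 0.027, with 0 at an unadjusted p under 0.05 and 0 called by DESeq2 or limma, and no test of paralogues against parents was made. Ribosomal protein genes have many near-identical processed copies in the mouse genome, so the counting may have divided reads between a gene and its copies.

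Part of the median difference moved with transcript length. Among all genes, the tenth with the shortest effective length had a median log2 fold change of -0.069 and the tenth with the longest 0.031. On FPKM, in which each library's own effective length is divided out, the members had a median of -0.057 and all genes 0.030. On that scale 68 of the 81 members were lower, against 4829 of the 12222 genes tested. With the effective length of each library as an offset to the counts, the median was -0.093, 75 members were lower and, with the replicate block, 27 were called lower and 0 higher (background 6.98% lower and 6.47% higher). With the length trend removed from the counts the median was -0.052. The median kept its sign on each of these scales and was smaller. FPKM carries no TMM scaling, so its median is not like for like with those of counts. It is to be read beside the 0.030 of all genes.

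Within each class of length the members had a lower median than the other genes on both scales, a difference that was not tested. From 1000 to 5000 nt of effective length, the median log2 fold change of counts was -0.129 over 13 members and 0.002 over 8454 other genes, and on FPKM -0.089 and 0.032. From 500 to 1000 nt it was -0.105 over 19 members and -0.050 over 949 other genes, and on FPKM -0.060 and -0.006. From 250 to 500 nt the counts gave -0.099 over 25 members and -0.086 over 253 other genes, and FPKM gave -0.047 and -0.022. From 120 to 250 nt they gave -0.134 over 19 members and -0.095 over 100 other genes, and FPKM gave -0.057 and -0.011. Under 120 nt only 5 members, Rpl38 among them, and 13 other genes remained, at -0.218 and -0.064 in counts and -0.112 and 0.040 on FPKM. Over the 81 members, which share libraries and normalisation, Spearman's rho of effective length and log2 fold change was 0.17 on counts and -0.12 on FPKM.

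**Figure D3:**
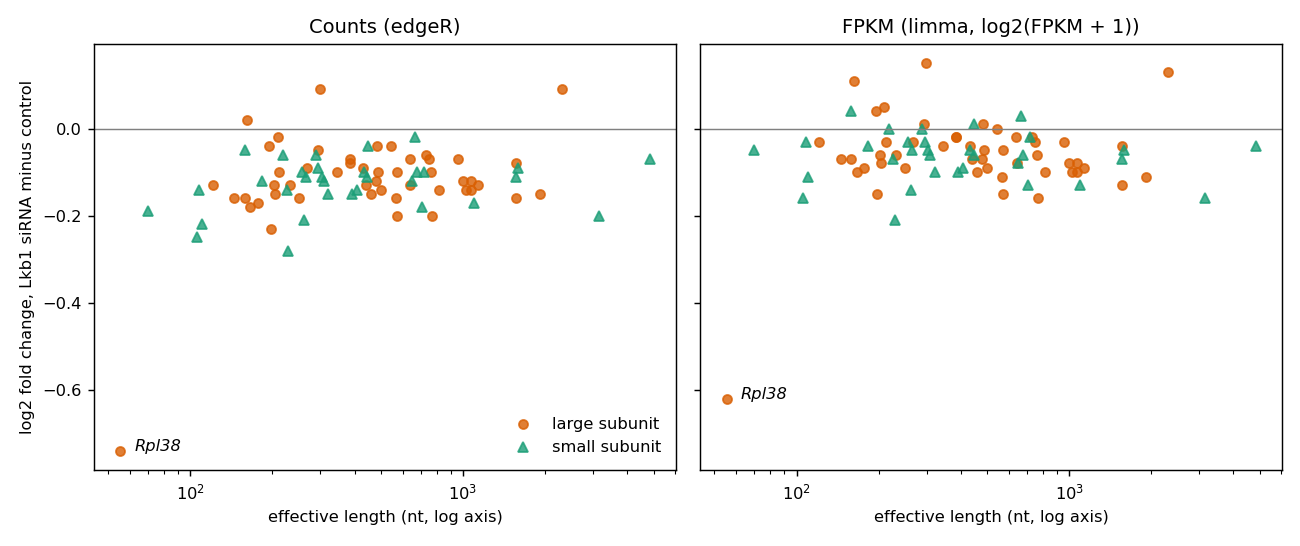
Each tested member's log2 fold change, Lkb1 siRNA minus control siRNA, is plotted against its effective length in nucleotides (log axis), from counts on the left and from FPKM on the right, with circles for the large and triangles for the small subunit. Most members lie below 0 on both scales, nearer to 0 on FPKM, and Rpl38 is lowest on both, at -0.74 and -0.62.

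Other parts of the translation machinery were set beside the ribosomal proteins, with no test of the lists. The 78 mitochondrial ribosomal protein genes, which serve the ribosome of the mitochondrion, had a median log2 fold change of -0.023. Of them 46 were lower, none was called by edgeR, DESeq2 or limma, 3 were lower at an unadjusted p under 0.05 (5.53% of all genes), and 4 (5.13%) were called lower with the block (6.99% of all genes). Among 52 tested initiation factor genes 34 were lower, the median was -0.057, none was called by the 3 tools, 4 were lower at an unadjusted p under 0.05, and 7 (13.5%) were called lower with the block. All 7 elongation factor genes were lower, with a median of -0.097 and none called by the 3 tools without the block; 1 was lower at an unadjusted p under 0.05, and 3 (42.9%) were called lower with the block. Eef1a1, which brings aminoacyl-tRNA to the ribosome, had 16601 and 17256 CPM with Lkb1 siRNA and 18210 and 18362 CPM with control siRNA (-0.11, SE 0.0529).

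All 13 of the other listed mRNAs with a TOP tract were also lower, with a median of -0.095, 9 of them (69.2%) without overlap, against 21.4% of all genes. Of the 13, 0 were called by the 3 tools, 0 were lower at an unadjusted p under 0.05, and 4 (30.8%) were called lower with the block, against 6.99% of all genes. Eif4b, a helicase cofactor in initiation, had 1196 and 1309 CPM with Lkb1 siRNA and 1346 and 1433 CPM with control siRNA (-0.15, SE 0.0701). Tpt1, the translationally controlled tumour protein, had 1661 and 1796 CPM with Lkb1 siRNA and 1868 and 1938 CPM with control siRNA (-0.14, SE 0.0655). Both were lower without overlap.

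Lists of genes that act on ribosomal proteins had mixed directions. Of the 10 chaperones of free ribosomal proteins only 2 were lower, and the median was 0.079, with 0 called by any of the 3 tools and 0 at an unadjusted p under 0.05. Grwd1, a chaperone of Rpl3, had 65.1 and 55.2 CPM with Lkb1 siRNA and 60.3 and 47.2 CPM with control siRNA (0.16, SE 0.121). Of 6 importins 2 were lower, with a median of 0.023. Of 8 regulators of TOP mRNAs 3 were lower. Eif4ebp1, a repressor of translation that mTOR inhibits, had 108 and 96.4 CPM with Lkb1 siRNA and 127 and 113 CPM with control siRNA (-0.23, SE 0.0844, edgeR adjusted p = 0.358, and 1.72e-04 with the replicate block). Larp4, an RNA-binding protein of the LARP family, had 198 and 189 CPM with Lkb1 siRNA and 183 and 155 CPM with control siRNA (0.20, SE 0.0868, adjusted p = 0.448, and 0.00103 with the replicate block). With the block 1 of the 8 was called higher and 1 lower, against 6.59% of all genes higher and 6.99% lower. Of 8 S6 kinase genes 5 were lower. Rps6kb2, the second p70 S6 kinase, had 23.1 and 22.8 CPM with Lkb1 siRNA and 18.2 and 20 CPM with control siRNA (0.26, SE 0.102), and Rps6kb1 had 82.5 and 76.3 CPM with Lkb1 siRNA and 73.2 and 73.0 CPM with control siRNA (0.12, SE 0.0714). Rps6ka3, a p90 S6 kinase, had 128 and 123 CPM with Lkb1 siRNA and 148 and 133 CPM with control siRNA (-0.17, SE 0.0748). None of the 3 passed without the block, and with it Rps6kb2 was called higher (edgeR adjusted p = 0.0291) and Rps6ka3 lower (0.00974). Of the 8 S6 kinase genes 1 was thus called higher and 1 lower, against the same 6.59% and 6.99% of all genes. Within the ribosome, 7 of 8 genes at the rim of the exit tunnel and 10 of 10 Diamond-Blackfan anaemia genes were lower, with medians of -0.131 and -0.107. Among all tested members 96.3% were lower, with a median of -0.119, so these lists did not stand apart.

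**Figure D4:**
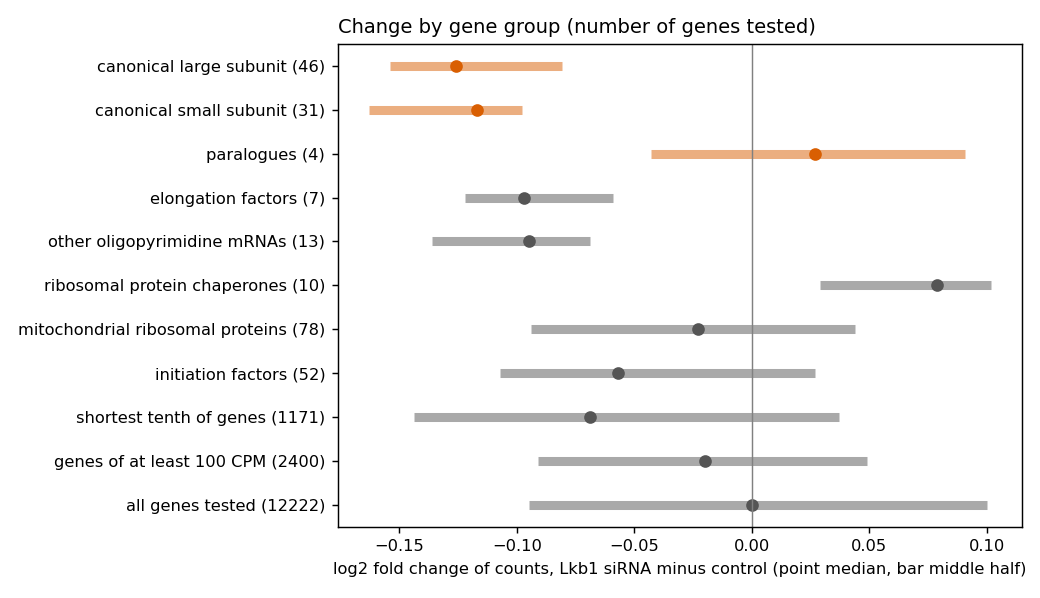
Points give the median and bars the interquartile range of the log2 fold change of counts, Lkb1 siRNA minus control siRNA, for each gene group, with the number of genes tested in brackets. The canonical large and small subunit lie at -0.126 and -0.117, the elongation factors and other TOP mRNAs near -0.1, and mitochondrial ribosomal proteins at -0.023, with all genes at 0.000.

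Of the 150 transcripts of these genes 136 were tested, and 107 were lower and 29 higher, against 50.3% lower among all 34279 transcripts tested. The median was -0.121 for the members and -0.002 for all transcripts. Both Lkb1 siRNA libraries lay below both control libraries in 92 (67.6%, against 19.1% of all transcripts). No transcript of any gene was called by edgeR (0% of the 34279, with and without the block), the smallest adjusted p among the members was 0.687, and 27 were lower and 0 higher at an unadjusted p under 0.05, against 3.61% lower among all transcripts. DESeq2 and limma were not run on transcripts.

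Most members use 1 transcript: 50 of the 83 genes had only 1 in the table, and in 73 of the 81 tested genes 1 transcript carried at least 90% of the counts. Rps24, a small-subunit protein with known alternative splicing at its 3′ end, was divided among several. XM_030247696 had 371 and 366 CPM with Lkb1 siRNA and 388 and 375 CPM with control siRNA (log2 fold change -0.05, SE 0.047). NM_011297 had 256 and 269 CPM with Lkb1 siRNA and 283 and 309 CPM with control siRNA (-0.17, SE 0.0687). NM_207634 had 127 and 99.8 CPM with Lkb1 siRNA and 137 and 125 CPM with control siRNA (-0.21, SE 0.146), and overlapped between groups, while the other 2 did not. NM_207635 had 46.2 and 59.3 CPM with Lkb1 siRNA and 45.5 and 55 CPM with control siRNA (0.07, SE 0.178), an overlap.

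Rpl11 and Rpl5 each had a pair of transcripts at similar levels, and both of each pair were lower. For Rpl11, NM_025919 had 298 and 290 CPM with Lkb1 siRNA and 318 and 320 CPM with control siRNA, and XM_006539112 had 320 and 343 CPM with Lkb1 siRNA and 353 and 365 CPM with control siRNA. For Rpl5, NM_016980 had 672 and 623 CPM with Lkb1 siRNA and 763 and 690 CPM with control siRNA, and XM_006534684 had 781 and 836 CPM with Lkb1 siRNA and 883 and 903 CPM with control siRNA. None overlapped between groups. Reads that both transcripts of a gene share were divided by estimation, so their levels are less certain than the gene's.

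Between the batches, batch 2 over batch 1, the members differed little. Their median log2 fold change was 0.014, and 3 of 81 were called, against a background of 6.62% of genes lower and 6.3% higher. Rpl38 was higher in batch 2 (log2 fold change 0.19, edgeR adjusted p = 0.00678), Rpl7l1 lower (-0.14, 0.045) and Rps27l lower (-0.18, 0.017). For Rpl38 the batch gap lay in the Lkb1 siRNA libraries, at 79.2 CPM in batch 2 and 59.7 CPM in batch 1, while the control libraries held 117 and 116 CPM.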

How the data were processed

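RNA from 4 mouse cell cultures was sequenced as 150 bp read pairs. RSEM 1.2.8, HISAT2 2.0.4, Bowtie2 2.2.5 and build GRCm39 are named in the submitters' processing notes; the roles of the tools, the annotation release and the strand setting were not given in the sources used here. The deposited read counts are expected counts (estimated by the authors, so 5.73 to 5.97% of gene values in a library are not whole), and the deposited FPKM values are the authors' own, per length and library size. Doubled decimal points (17 gene and 41 transcript cells) were read as 1 point, and 2 symbols turned into dates were restored by gene ID.

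Counts were rounded and tested on the whole table with edgeR 4.0.16 in R 4.3.3 (robust quasi-likelihood F-test, TMM, expression filter with minimum count 10), with Benjamini-Hochberg adjustment over all 12222 genes or 34279 transcripts and a threshold of 0.05. Transcript tests took no account of the uncertainty of assigning reads. CPM uses TMM-scaled library sizes, separately for genes and transcripts. Alternatives used DESeq2 1.42.0 and limma 3.58.1 on log2(FPKM + 1) or log2(FPKM + 0.1), a scale that understates the change of low genes; the effective length offset was added after seeing the data. The labels state the batch of each library, and same-batch libraries deviated together from their group means (correlation 0.259), so batch pairs them; the common biological coefficient of variation was 6.39% without and 3.15% with the block. Nothing says the cultures were independent beyond their batch, so p-values measure at most the spread between these libraries. With the block most of the spread is taken from other genes. Without 1 Lkb1 siRNA library the gap between the Lkb1 siRNA libraries is left out.

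The members and lists were chosen with earlier results of these data known. Named members were the 8 with the smallest p, those more than 3 scaled median absolute deviations from the median, the 3 highest and 3 lowest by FPKM in each subunit, all paralogues with their parents, and Rpl38, Rps15, Rpl5, Rpl11, Rps6, Rplp0, Rplp1 and Rplp2 by role; of other lists, up to 4 genes with the smallest p; of transcripts, those of named members with a mean of at least 1 CPM. Rps24 transcripts, Rpl23, Rps29 and Rpl35 were added after their values were seen. Rpl38 was also named as an outlier with its result known.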

Additional observations from a re-analysis of the deposited data

Results flagged for a closer look

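For 5 members the 2 batches lay on opposite sides of 0, so that 1 Lkb1 siRNA library was above and the other below its batch's control; with 1 library per group and batch the difference between batches was not tested. Rpl35 had a log2 ratio of -0.12 in batch 1 and 0.16 in batch 2. Rpl7l1 had -0.02 in batch 1 and 0.22 in batch 2. Rps26, a protein near the mRNA exit, had -0.12 in batch 1 and 0.03 in batch 2. Rpl24, at the interface of the subunits, had -0.17 in batch 1 and 0.02 in batch 2. Rpl10a, on the mobile arm opposite the stalk, had 0.01 in batch 1 and -0.09 in batch 2.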

How the results depend on the processing

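With 2 libraries per group no permutation test can pass, and at these depths a member's log2 fold change had a median SE of 0.064. The 10 genes called over the whole table became 3 when library size replaced TMM, 45 with a filter of 1 count, 3 with a minimum of 5 CPM, 49 in DESeq2, 4 with the length trend removed, 2 with the effective length offset and 0 in limma on either FPKM scale. With the replicate block they became 1660, and 1526 with the length trend removed and 1644 with the effective length offset under the block. Without 1 library they numbered 66 to 253. The 0 members called became 1 (Rpl38) with a filter of 1 count or in DESeq2, 39 with the replicate block, 13 (12 lower and Rpl35 higher, at 0.12) with the length trend removed under the block, 27 with the offset under the block, and 0 to 2 without 1 library: Rpl38 with Rps15 without Lkb1 siRNA replicate 1, and Rpl38 with Rps29 without Lkb1 siRNA replicate 2.

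The members' median of -0.119 moved to -0.086 with library size (all genes 0.033) and to -0.057 on both FPKM scales (all genes 0.030 and 0.035). It moved to -0.052 with the length trend removed and -0.053 with the trend removed under the block. With the offset it was -0.093, with or without the block, and without 1 library it ran from -0.125 to -0.104. The transcript median moved to -0.077 with library size. Rpl38 passed at -0.75 with a filter of 1 count or the replicate block, -0.74 in DESeq2, -0.61 with the trend removed and -0.65 with the offset, both under the block; without 1 library it ran from -0.96 to -0.55. The difference of the medians of the subunits, -0.004, ran from -0.005 to 0.024 without 1 library. Between batches the called members became 5 and the median 0.032 with library size, and the median 0.003 within control siRNA.

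Small differences turned round. Rpl22l1 came to 0.06 with the trend removed, 0.04 on FPKM, and 0.0044 and 0.0042 with the offset without and with the block. Rps26 came to 0.06, 0.04 and 0.01 under these settings, and ran from -0.09 to 0.0041 without 1 library (above 0 without Lkb1 siRNA replicate 1). Rps27l came to 0.03 with the trend removed, 0.005 on FPKM, and ran from -0.15 to 0.03 without 1 library (0.03 when either batch 1 control siRNA or batch 2 Lkb1 siRNA was left out). Rpl7l1 ran from -0.03, without control siRNA replicate 2, to 0.23. Of 459 values of the 27 named and tested members besides Rpl38, 406 kept direction and side of the threshold, 33 passed where the unblocked edgeR test did not, and these 20 turned round. The cause was not tested.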
